A study of Caenorhabditis elegans with 12 samples.

Results

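This account sets Caenorhabditis elegans carrying an isp-1 mutation against wild type (WT) worms across all measured genes. The comparison was chosen by genotype label alone and covers 6 of the 12 libraries of the study: 3 of isp-1 mutants and 3 of WT. The remaining 6 libraries are double mutants, 3 of isp-1;sod-5 and 3 of isp-1;sod-3, in which a superoxide dismutase gene was mutated as well. All worms were whole, prefertile young adults grown at 20 °C on nematode growth medium plates with OP50 bacteria. The labels name the mutated genes but no alleles. The design text speaks of 9 replicates per genotype, with RNA from 3 of them combined in each library, while the pooling label of the samples reads none. P-values therefore measure the spread between libraries, part of which may be technical. In whole worms, fewer cells of a type and less RNA per cell cannot be told apart.

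The gene isp-1 encodes the Rieske iron-sulfur protein, a catalytic subunit of complex III of the mitochondrial electron transport chain. Complex III takes electrons from ubiquinol and passes them to cytochrome c while moving protons across the inner membrane. Worms with a partial loss of this function are known for slow development, low oxygen consumption and long life.

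Transcript levels were deposited as CPM, read counts scaled to a total of 1000000 per library, for 14326 genes, of which 14013 exceeded 1 CPM in at least 3 of the 12 libraries and were tested. A gene is termed called where the difference of log2(CPM + 0.5) had a Benjamini-Hochberg adjusted p below 0.05 in limma, fitted on all 12 libraries. Fold changes are given as isp-1 over WT on that scale, which understates the change of weakly expressed genes. The isp-1 libraries held 16230927, 11475108 and 8705573 reads and the WT libraries 32213638, 18719033 and 41907300 reads. The median standard deviation of a gene among libraries was 0.126 log2 units in isp-1, 0.270 in isp-1;sod-5, 0.217 in isp-1;sod-3 and 0.120 in WT. Nuclear rRNA transcript rrn-3.1 had 38750, 71160 and 62650 CPM in isp-1 and 18060, 29780 and 31400 CPM in WT, and was not called (limma adjusted p = 0.430).

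The isp-1 libraries differed from WT in many genes, in both directions. In all, 2798 genes were called (20.0% of those tested), 1345 higher in isp-1 (9.6%) and 1453 lower (10.4%). The balance moved with the scaling: median centring gave 1211 higher and 1824 lower genes, and leaving out rrn-3.1 gave 1667 higher and 1350 lower. The median log2 fold change over all tested genes was 0.01. The libraries of the groups did not overlap for 7246 genes (51.7%). The 1.5- to 2-fold range held 497 of the higher genes and 196 of the lower ones, whereas the 2- to 4-fold range held 349 higher and 985 lower genes. A change of at least 8-fold was seen in 19 higher and 7 lower genes. Fitted on the isp-1 and WT libraries alone, 5702 genes were called (40.7%), 2700 higher (19.3%) and 3002 lower (21.4%), and these held 2795 of the 2798. The number called was 1111 without isp-1 replicate 1, 1088 without isp-1 replicate 3, and 1225, 1177 and 1463 without WT replicate 1, 2 or 3. Without isp-1 replicate 2 it was 2158. Lower genes then numbered 1180, against 386 to 654 with any other isp-1 or WT library left out. For higher genes the numbers were 978 and 647 to 809. Counts with single libraries left out, given below for families, lists and regions, stand beside these drops over all genes. Of 213 called genes named by the selection rule, 109 kept the call whichever library was left out.

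**Figure D1:**
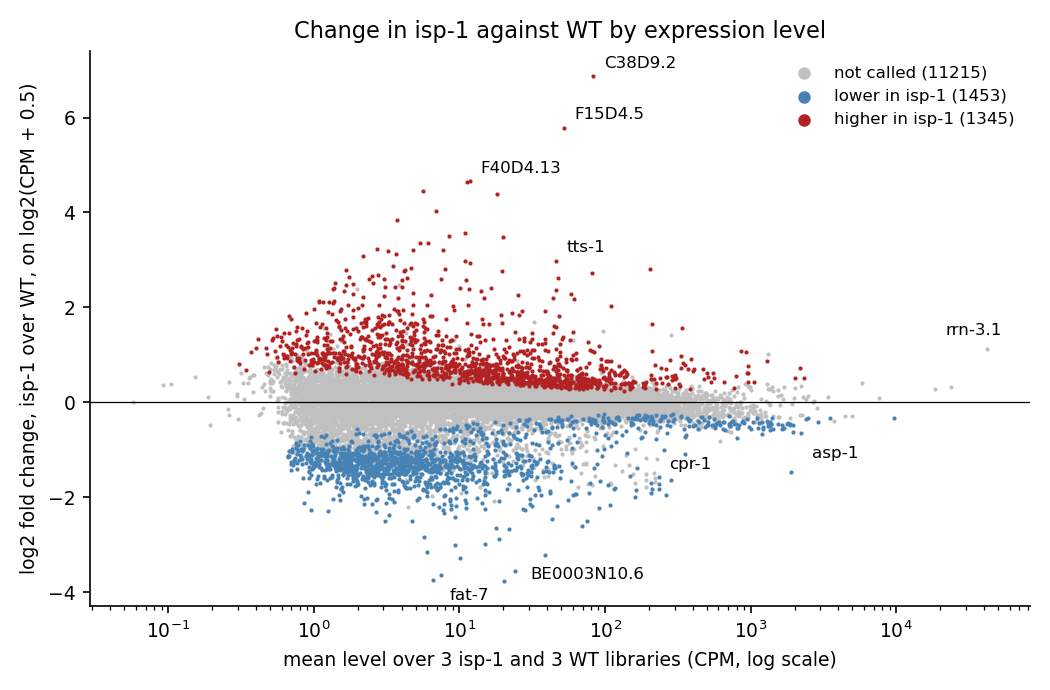
Log2 fold change of isp-1 over WT on log2(CPM + 0.5) against the mean level of each of 14013 tested genes in the 3 isp-1 and 3 WT libraries (CPM, log scale), with 1345 called higher genes in red and 1453 called lower genes in blue. The strongest rises stand alone at the top, while the lower genes form a dense band between 2-fold and 4-fold below WT at levels under 20 CPM.

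Replicate 2 of isp-1 stood apart among the lower genes. It was the highest of the isp-1 libraries for 804 of the 1050 genes that were at least 2-fold lower (76.6%). Over all tested genes that library was the highest for 35.3%, and among called higher genes for 24.1%. For most of these lower genes replicate 2 therefore lay nearest to WT.

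The largest rises included genes that carry no locus name. C38D9.2, on chromosome V from 17567150 to 17571742 on the plus strand of build WBcel235, had 184, 141 and 171 CPM in the isp-1 libraries, against 1.71, 0.748 and 0.501 CPM in WT. The groups were far apart, with a log2 fold change of 6.88 (SE 0.22, limma adjusted p = 1.28e-09). F15D4.5, on chromosome II from 13245376 to 13247774 on the plus strand, reached 113, 94.2 and 103.8 CPM in isp-1, against 1.99, 1.496 and 0.835 CPM in WT. Its log2 fold change was 5.79 (SE 0.19, limma adjusted p = 6.91e-10), and again every isp-1 library exceeded every WT library by a wide margin. F40D4.13, on chromosome V from 17155874 to 17157254 on the minus strand, measured 24.3, 21.3 and 23.4 CPM in isp-1, against 0.435, 0.534 and 0.334 CPM in WT. The isp-1 libraries were nearly equal for this gene, and its adjusted p of 1.60e-10 by limma came with a log2 fold change of 4.66 (SE 0.13). In the double mutants, which were compared with the same WT libraries, C38D9.2 ranged from 234 to 289 CPM and F15D4.5 from 200 to 331 CPM.

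Among the genes with the smallest adjusted p, several are named enzymes and membrane proteins. The alcohol dehydrogenase gene adh-1 had 80.8, 81.2 and 82.0 CPM in isp-1 and 15.6, 10.9 and 12.5 CPM in WT. The isp-1 values were almost identical, and the log2 fold change was 2.62 (SE 0.14, limma adjusted p = 7.63e-08). The scramblase-family gene scrm-4, whose relatives move phospholipids between membrane leaflets, had 21.1, 18.3 and 24.2 CPM in isp-1 and 2.42, 2.297 and 2.195 CPM in WT (log2 fold change 2.94, SE 0.15, limma adjusted p = 6.33e-08). The gene chca-1 had 70.9, 85.7 and 75.6 CPM in isp-1 and 13.5, 14.7 and 15.2 CPM in WT, a log2 fold change of 2.37 (SE 0.13). For both genes all isp-1 libraries lay well above all WT libraries.

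The deepest falls also included genes that carry no locus name. BE0003N10.6, on chromosome III from 1056230 to 1060061 on the minus strand, had 1.97, 4.62 and 4.14 CPM in isp-1, against 44.3, 45.2 and 44.96 CPM in WT. The WT libraries barely differed and the groups were widely separated, with a log2 fold change of -3.54 (SE 0.34, limma adjusted p = 2.78e-05). D1014.6, on chromosome V from 8121168 to 8123470 on the plus strand, had 0.555, 0.436 and 0.460 CPM in isp-1, against 14.2, 13.2 and 10.59 CPM in WT (log2 fold change -3.73, SE 0.30, limma adjusted p = 5.39e-06). Its neighbour D1014.7 had 0.739, 1.13 and 0.574 CPM in isp-1 and 14.2, 10.95 and 8.54 CPM in WT, so that both genes of this stretch were low in every isp-1 library. B0024.4 had 1.36, 2.18 and 1.03 CPM in isp-1 and 18.5, 18.4 and 18.9 CPM in WT, a log2 fold change of -3.28 (SE 0.31).

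Protease and transporter genes stood among the strong falls too. Both asp-12 and asp-17 encode aspartyl proteases. They fell by 2.99 and 2.997 on the log2 scale, to means of 2.84 and 1.69 CPM in isp-1, against 27.1 and 17.1 CPM in WT. The P-glycoprotein gene pgp-6, an ABC transporter, had 3.64, 4.79 and 3.91 CPM in isp-1 and 31.5, 33.2 and 34.5 CPM in WT (log2 fold change -2.87, SE 0.19, limma adjusted p = 9.51e-07). The gut cysteine protease gene cpr-1 had 132, 108 and 111 CPM in isp-1, against 345, 345 and 361 CPM in WT. The groups were clear of each other at a log2 fold change of -1.58 (SE 0.26, limma adjusted p = 0.00236). The desaturase gene fat-7 and the hedgehog-related gene wrt-4 were among the 15 largest falls as well.

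**Figure D2:**
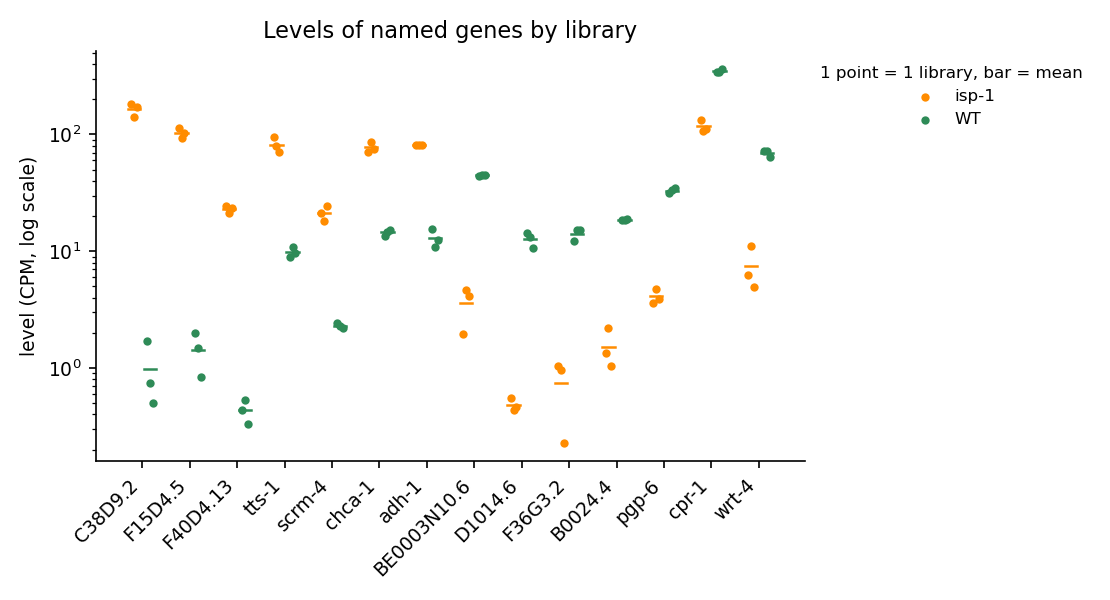
Level of 14 named genes (CPM, log scale) in each of 3 isp-1 libraries (orange) and 3 WT libraries (green), with the group mean as a bar. The first 7 genes, from C38D9.2 to adh-1, are higher in every isp-1 library than in any WT library, and the last 7, from BE0003N10.6 to wrt-4, are lower in every isp-1 library.

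Some transcripts were near zero reads in one of the groups. No read was assigned to lips-6, a lipase-related gene, in the isp-1 libraries, against 154 reads in WT. With 3 reads over the group as the floor, lips-6 was at least 20.7-fold lower in isp-1. The pseudogene srp-5 likewise had 0 reads in isp-1 and 184 in WT, at least 23.3-fold lower. The C-type lectin gene clec-229 had 3 reads in isp-1 and 164 in WT. In the other direction F22B3.7 had 401 reads in isp-1 and 2 in WT, and the pseudogene C54E10.1 had 49 and 2. The WT group was sequenced more deeply, and such floors cover counting error only. F22B3.7 measured 9.73, 12.9 and 10.9 CPM in isp-1, against 0.0310, 0.0534 and 0 CPM in WT. Its isp-1 libraries lay within a narrow range, and the limma adjusted p was 7.63e-08.

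For a pair of other named genes, picked out after their double-mutant values were seen, isp-1;sod-3 values lay nearer to WT than to isp-1. Y49G5A.1 had 15.8, 14.9 and 17.2 CPM in isp-1, 3.57, 6.07 and 10.4 CPM in isp-1;sod-5 and 1.13, 2.48 and 2.26 CPM in isp-1;sod-3, against 1.18, 0.801 and 0.907 CPM in WT. F36G3.2 had 1.05, 0.959 and 0.230 CPM in isp-1, 0.470, 0.552 and 0.849 CPM in isp-1;sod-5 and 11.7, 7.97 and 12.5 CPM in isp-1;sod-3, against 12.2, 15.1 and 15.1 CPM in WT. In isp-1;sod-5 the F36G3.2 values lay in the range of isp-1. The difference between isp-1 and the double mutants was not tested.

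Most transcripts of complex III differed by small amounts. The isp-1 transcript had 332, 336 and 348 CPM in isp-1 and 306, 273 and 306 CPM in WT (log2 fold change 0.20, SE 0.11, limma adjusted p = 0.221). Since no allele is named, this level does not check the genotype label. Of 15 listed subunits, assembly factors and cytochrome c genes, 4 were higher and 0 lower (0 to 3 higher with single isp-1 or WT libraries left out), with a median log2 fold change of 0.17. The core subunit gene ucr-2.1 had 163, 166 and 166 CPM in isp-1 and 124, 116 and 134 CPM in WT. Its isp-1 libraries lay above all WT libraries by a small margin (log2 fold change 0.41, SE 0.10, limma adjusted p = 0.0168). The others were R07E4.3 (0.64), the small subunit gene ucr-11 (0.37) and bcs-1 (0.32), whose product inserts the Rieske protein into the complex. All 4 calls ended when single isp-1 or WT libraries were left out: the adjusted p by limma then reached 0.0800 for ucr-2.1, 0.0977 for R07E4.3, 0.158 for ucr-11 and 0.107 for bcs-1. The cytochrome c gene cyc-2.2 was not called, but its log2 fold change was -1.05 to -0.84 over the alternatives. It was called lower in 9 of them, among these edgeR, DESeq2 and the fit on the 6 libraries.

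The mitochondrial genome encodes core subunits of complexes I, III, IV and ATP synthase and the ribosomal RNAs of the organelle. Of its 14 measured transcripts, 4 were called higher in isp-1 and 0 lower. ND6, a complex I subunit gene, had 122, 112 and 89.7 CPM in isp-1, against 45.9, 42.4 and 44.4 CPM in WT. The WT libraries were close together and below all isp-1 libraries, at a log2 fold change of 1.27 (SE 0.18, limma adjusted p = 6.20e-04). ND4L, its neighbour, had 85.8, 57.9 and 62.3 CPM in isp-1 and 31.4, 29.4 and 25.2 CPM in WT (log2 fold change 1.23, SE 0.29, limma adjusted p = 0.0140).

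ND5 and the larger ribosomal RNA KEF34_r01 were higher by 0.88 and 2.02 on the log2 scale, with limma adjusted p of 0.0231 and 0.0286. On the isp-1 and WT libraries alone both lost the call, with an adjusted p by limma of 0.0571 for ND5 and 0.0647 for KEF34_r01. ND6 kept its call whichever library was left out, while the adjusted p reached 0.0600 for ND4L, 0.0880 for ND5 and 0.0842 for KEF34_r01 with 1 library left out. The other 10 transcripts varied widely in WT. Cytochrome b, the complex III subunit encoded by CYTB, had 2110, 2704 and 2017 CPM in isp-1 and 3140, 2457 and 1200 CPM in WT, and the groups overlapped. WT replicate 3 held the lowest CYTB value of the 6 libraries. Protein-coding mitochondrial transcripts took 1.46, 2.06 and 1.53% of reads in isp-1 and 1.85, 1.54 and 0.793% in WT.

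**Figure D3:**
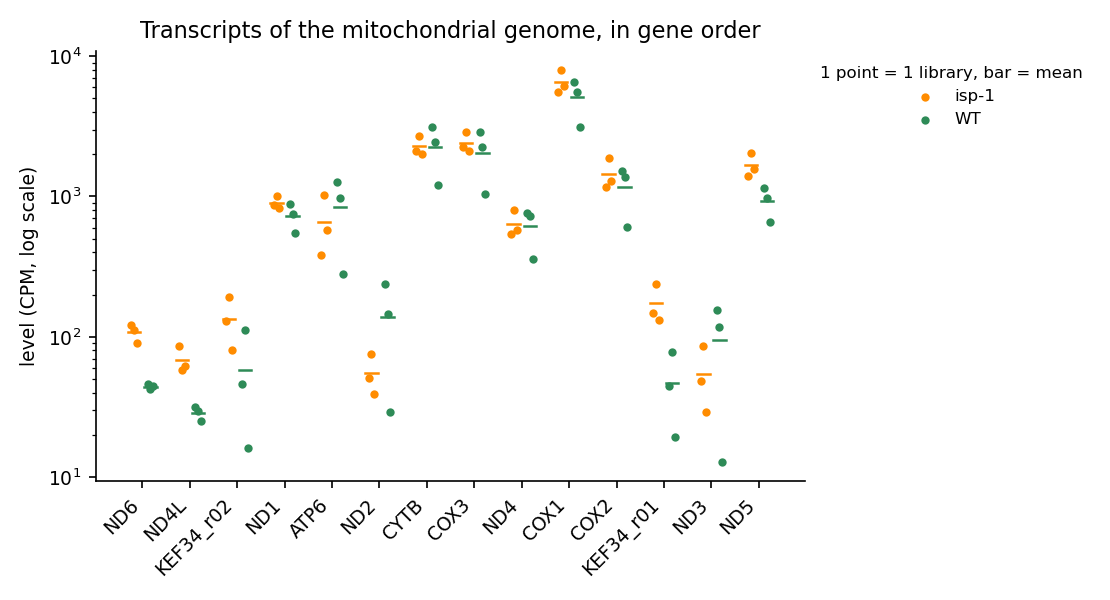
Level of the 14 transcripts of the mitochondrial genome (CPM, log scale) in each of 3 isp-1 libraries (orange) and 3 WT libraries (green), in gene order, with group means as bars. For ND6, ND4L, KEF34_r01 and ND5 every isp-1 library lies above every WT library, while the other 10 transcripts overlap between the groups.

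Called genes lay on all nuclear chromosomes, in differing shares. On chromosome V, 339 of 2640 tested genes were higher in isp-1 (12.8%) and 270 lower. Chromosome IV had 9.02% higher and 14.0% lower of 2384 genes, the highest share of falls. The X chromosome had 8.96% higher and 6.13% lower of 1942 genes, the lowest share of falls among the nuclear chromosomes. In the fit on the 6 libraries chromosome IV again had the highest share of lower genes (25.8%) and X the lowest (17.3%), beside 21.4% overall. With single isp-1 or WT libraries left out, the number of lower genes was 88 to 265 on chromosome IV and 27 to 97 on X, and that of higher genes on chromosome V 184 to 251. Dividing each nuclear chromosome into an inner 40% and outer parts of 30% at each end, higher genes made up 10.8% of outer genes and 8.37% of inner genes. For lower genes the shares were 10.5% and 10.3%. On chromosome V the outer parts had 15.3% higher and 12.1% lower genes, against 10.5 and 8.45% in the inner part.

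Single megabases reached larger shares. Between 17 and 18 Mb of chromosome V, 18 of 61 tested genes were higher (29.5%) and 4 lower, and 12 to 15 were higher with single isp-1 or WT libraries left out. This stretch holds C38D9.2 and F40D4.13, and beside C38D9.2 lies the noncoding transcript C38D9.13, with 4.19, 4.44 and 4.25 CPM in isp-1 and 0.155, 0 and 0.0477 CPM in WT (log2 fold change 3.09). C18D4.6, in the same megabase, had 13.5, 13.8 and 15.7 CPM in isp-1 and 1.37, 1.55 and 1.96 CPM in WT. Both transcripts were higher in every isp-1 library than in any WT library. Another 5 of the 18 were F-box genes of the fbxa family, whose products are thought to select proteins for ubiquitin ligases. Between 1 and 2 Mb of chromosome II, 26 of 122 genes were higher (21.3%), among them 6 math genes, and 16 to 23 with single isp-1 or WT libraries left out. Lower genes were densest between 5 and 6 Mb of chromosome IV, with 42 of 148 (28.4%), including 6 genes of major sperm proteins. Single isp-1 or WT libraries left out brought this count of 42 to between 9 and 29.

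Some adjacent genes shared a call. Runs of at least 3 neighbouring tested genes with the same call numbered 29 for higher genes and 44 for lower genes. The longest held 7 lower genes each. One, on chromosome IV from 9832886 to 9846674, held kin-21, msp-81, msp-10, kin-24, msp-56, nspd-2 and K07F5.6, a stretch of protein kinase, sperm protein and nematode-specific peptide genes with log2 fold changes between -1.71 and -1.33. The other, on chromosome V from 4022609 to 4043601, held cyp-35A3, K09D9.1, cyp-35A4, C49G7.7, C49G7.12, C49G7.10 and irg-2. With each library left out in turn, 2 of the 7 calls on chromosome IV were kept (kin-21 and msp-56) and 5 of the 7 on chromosome V (all but K09D9.1 and irg-2).

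In that second run cyp-35A3, a cytochrome P450 gene, had 0.739, 0.872 and 0.574 CPM in isp-1, against 4.22, 3.95 and 5.75 CPM in WT. It fell by 2.06 on the log2 scale (SE 0.24, limma adjusted p = 1.19e-04), while 22 of 58 cyp genes were higher. C49G7.12 had 0.616, 0.610 and 0.460 CPM in isp-1, against 4.38, 4.97 and 5.01 CPM in WT, and no library of either gene crossed between the groups. Runs of 5 lower genes included 5 neprilysin genes on chromosome II (nep-19, nep-20, nep-9, nep-10 and nep-8) and clec-151 to clec-154 with pqn-29 on chromosome III. Of these, nep-20, nep-10 and clec-154 kept their calls with each library left out. The longest higher run, picked out after its values were seen, was Y6G8.2, ztf-25, fbxa-191, fbxa-192 and fbxa-193 on chromosome V from 17594344 to 17655281, of which ztf-25 and fbxa-193 lost the call with single libraries left out. Y6G8.2 had 8.995, 8.37 and 8.04 CPM in isp-1 and 0.900, 0.855 and 0.549 CPM in WT, a log2 fold change of 2.83. Reads of near-identical family members (msp, cyp-35A, fbxa) may have been split between copies.

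The share of lower genes varied with expression level. Genes with a mean of 2 to 5 CPM were higher in 240 and lower in 403 of 2189 cases (18.4% lower). Those from 20 to 100 CPM were higher in 9.71% and lower in 4.41% of 4242 cases. Above 1000 CPM, 5 genes were higher and 36 lower (34.6% of that class), with a median log2 fold change of -0.27. Of these 36, 15 were rpl and 10 rps genes, which encode ribosomal proteins of the large and small subunit, with log2 fold changes between -0.67 and -0.33. The 5 higher ones were ND5 and the cuticle collagen genes col-20, col-119, col-140 and col-178. Of these, col-119 alone kept its call whichever library was left out. With single isp-1 or WT libraries left out, 7 to 19 genes of this class were lower. By exon length, lower genes made up 14.9% of 847 protein-coding genes under 500 bases and 4.32% of 740 genes of 4000 bases or more.

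Yolk protein genes, which are expressed in the intestine and are among the most abundant transcripts of adult hermaphrodites, did not move as a block. The gene vit-3 had 1139, 860 and 1037 CPM in isp-1, against 2890, 2740 and 2697 CPM in WT, clearly apart at a log2 fold change of -1.46 (limma adjusted p = 1.60e-04). The paralogue vit-4 was lower by a smaller amount (log2 fold change -0.49), a call that ended when any 1 of the isp-1 or WT libraries was left out, with an adjusted p by limma of up to 0.120. The genes vit-2 and vit-6 had log2 fold changes of 0.29 and 0.32, with limma adjusted p of 0.366 and 0.277. Over the alternatives vit-2 ranged from 0.00 to 0.38 and vit-6 from -0.31 to 0.41. In the fit on the 6 libraries 2 of 6 vit genes were higher and 3 lower, and for 5 of the 6 the groups did not overlap. The gene vit-5 had 9033, 6651 and 7859 CPM in isp-1 and 7439, 7220 and 7206 CPM in WT, and its groups overlapped. The vit genes share long stretches of sequence, so reads may have been divided between them.

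**Figure D4:**
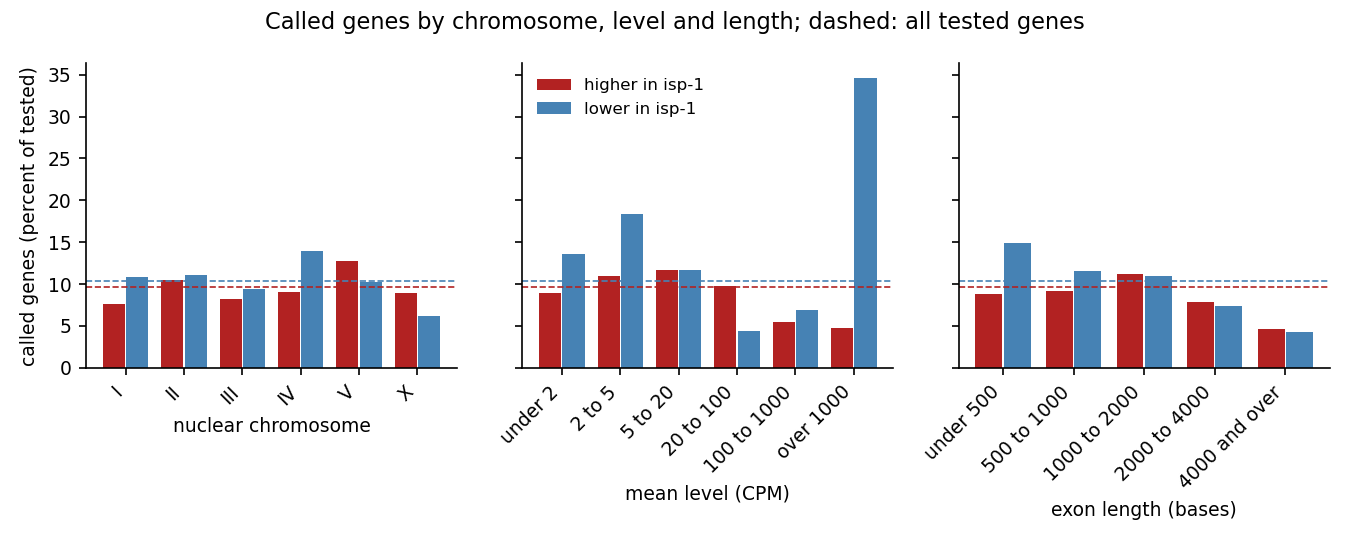
Percent of tested genes called higher (red) or lower (blue) in isp-1 by nuclear chromosome, by mean level over the 6 libraries (CPM) and by exon length of protein-coding genes (bases), with the shares over all tested genes, 9.6% and 10.4%, dashed. Falls peak at 34.6% above 1000 CPM, and both directions drop with exon length beyond 2000 bases.

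Among noncoding and pseudogene transcripts, pseudogenes had 62 higher and 72 lower of 400 tested (33.5% in all, beside 20.0% over all genes), and 40 to 56 higher and 31 to 61 lower with single isp-1 or WT libraries left out. Of the pseudogenes, 6 of the higher ones were fbxa and 3 bath pseudogenes. The pseudogene C06C3.5 had 16.6, 12.03 and 14.6 CPM in isp-1 and 1.09, 1.07 and 1.12 CPM in WT, a log2 fold change of 3.21 (SE 0.17, limma adjusted p = 7.63e-08). Long intergenic RNAs were higher in 2 and lower in 3 of 26 cases, other noncoding RNAs in 4 and 2 of 65. The long noncoding RNA tts-1, known from other long-lived worm strains, where it associates with ribosomes, had 95.6, 79.1 and 71.1 CPM in isp-1, against 8.97, 10.9 and 9.66 CPM in WT. All isp-1 libraries lay far above WT, with a log2 fold change of 2.99 (SE 0.36, limma adjusted p = 4.65e-04). It stood at 195 to 363 CPM in isp-1;sod-5 and 128 to 414 CPM in isp-1;sod-3. The intergenic RNA linc-29 had 9.06, 5.49 and 7.70 CPM in isp-1 and 1.92, 1.71 and 2.171 CPM in WT, while linc-7 was lower, with 12.7, 14.5 and 16.4 CPM in isp-1 and 33.9, 39.4 and 39.4 CPM in WT.

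Gene families were taken from the locus-name prefix, and 128 prefixes had at least 10 tested members. The 8 with the largest shares of higher genes were alh, cyp, bath, gst, fbxc, math, ech and spp. Aldehyde dehydrogenase (alh) genes were higher in 5 and lower in 1 of 12 cases (41.7 and 8.33%), beside 9.6 and 10.4% over all tested genes. With single isp-1 or WT libraries left out 2 or 3 were higher and 0 or 1 lower. Of these alh-5 had 20.4, 21.6 and 15.7 CPM in isp-1 and 7.51, 6.95 and 6.47 CPM in WT (log2 fold change 1.39, SE 0.15, limma adjusted p = 5.73e-05). Enoyl-CoA hydratase (ech) genes, of fatty acid oxidation, were higher in 3 and lower in 1 of 10. Here ech-1.1 had 9.80, 7.23 and 8.27 CPM in isp-1 and 3.23, 2.67 and 2.96 CPM in WT, and ech-9 ran the other way, with 0.370, 0.784 and 0.804 CPM in isp-1 against 3.07, 2.89 and 2.34 CPM in WT. No library of alh-5, ech-1.1 or ech-9 overlapped the other group.

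Families with BTB, MATH or F-box domains recruit proteins to cullin ubiquitin ligases, and their shares of higher genes ranged from 12.5 to 37.8%. The counts were 14 higher and 0 lower of 37 bath genes, 7 and 1 of 22 math genes and 9 and 2 of 25 fbxc genes, with median log2 fold changes of 0.41, 0.43 and 0.38. In the limma fit on 12 libraries the shares of higher genes were smaller for fbxb, fbxa and btb, beside 9.6% over all genes. There fbxb had 6 higher and 0 lower of 32 (18.8% higher). For fbxa the counts were 20 and 8 of 114 (17.5%), and for btb 2 and 1 of 16 (12.5%). The median log2 fold changes of fbxb, fbxa and btb were 0.60, 0.23 and 0.40. The gene bath-45 had 6.72, 7.76 and 6.89 CPM in isp-1 and 0.807, 0.801 and 1.12 CPM in WT (log2 fold change 2.44, SE 0.19, limma adjusted p = 3.13e-06). Its relative bath-13 had 10.17, 9.06 and 11.3 CPM in isp-1 and 0.466, 0.588 and 0.573 CPM in WT. Both were many-fold higher in all isp-1 libraries. The F-box gene fbxc-51 had 22.6, 14.6 and 22.3 CPM in isp-1 and 3.38, 2.83 and 3.79 CPM in WT. In the fit on the 6 libraries 18 bath, 11 math, 12 fbxc, 17 fbxb, 36 fbxa and 5 btb genes were higher. The fbxb share was then 53.1%, the highest of these families, beside 19.3% over all genes in that fit. Of the 32 fbxb genes, edgeR and DESeq2 each called 11 higher. With single isp-1 or WT libraries left out, 10 or 11 bath, 2 to 5 math, 4 to 9 fbxc, 2 to 5 fbxb and 12 to 17 fbxa genes were higher.

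Cytochrome P450 (cyp) genes were higher in 22 and lower in 3 of 58 cases, and glutathione S-transferase (gst) genes in 13 and 0 of 36. The shares of higher genes were 37.9 and 36.1%, beside 9.6% over all tested genes. The counts of higher genes were 14 to 17 cyp and 7 to 10 gst with single isp-1 or WT libraries left out. Over all tested genes 1345 higher genes became 647 to 978 in these settings. Saposin-like (spp) genes, whose products bind lipids and include antimicrobial peptides, were higher in 5 and lower in 1 of 18, and 2 to 4 were higher with single isp-1 or WT libraries left out. The gene spp-1 had 47.1, 45.9 and 43.7 CPM in isp-1 and 21.3, 23.4 and 25.7 CPM in WT, clearly apart (log2 fold change 0.95, SE 0.09, limma adjusted p = 2.88e-05). By contrast spp-4 had 12.01, 11.8 and 10.8 CPM in isp-1 and 24.6, 22.9 and 23.7 CPM in WT.

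The prefixes with the largest shares of lower genes were msp, rps, idpp, spe, rpl, abu, grd and nep. Major sperm protein (msp) genes were lower in 24 of 32 cases and spe genes, needed for sperm development and activation, in 12 of 23, with 0 higher in either family. Without isp-1 replicate 2, 17 msp and 12 spe genes were lower, and with any other isp-1 or WT library left out 4 to 6 msp and 5 to 9 spe genes. Lower genes over all tested genes dropped too, from 1453 to 1180 and to 386 to 654 in these settings. The gene spe-49 had 0.555, 1.31 and 0.574 CPM in isp-1 and 3.17, 3.53 and 2.89 CPM in WT, and replicate 2 of isp-1 again lay nearest to WT. Of 8 sperm markers 6 were lower (2 to 5 with single isp-1 or WT libraries left out), and their summed share of reads was 0.00577 to 0.00796% in isp-1 and 0.0156 to 0.0158% in WT. Germline markers were called in 0 of 8 cases and oocyte and eggshell markers in 0 of 8, with limma at an unadjusted p below 0.05, edgeR and DESeq2 also at 0 in both lists. The limma fit on the 6 libraries called 1 germline marker lower and 1 oocyte and eggshell marker higher. Germline markers took 0.259 to 0.279% of reads in isp-1 and 0.286 to 0.289% in WT, without overlap. Oocyte and eggshell markers took 0.596 to 0.673% and 0.602 to 0.627%. The part of sperm number in the falls of sperm genes was not tested.

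Ribosomal protein genes were lower in 20 of 31 rps and 24 of 47 rpl cases, with 0 higher and median log2 fold changes of -0.43 and -0.42. Their spread was small: rps-6 had 926, 899 and 909 CPM in isp-1 and 1280, 1299 and 1415 CPM in WT (log2 fold change -0.55, SE 0.11, limma adjusted p = 0.00700). Without isp-1 replicate 2, 8 rps and 3 rpl genes were lower, without WT replicate 1, 14 and 17, and with any other isp-1 or WT library left out 4 to 6 and 1 to 3. Over all tested genes these settings gave 1180, 503 and 386 to 654 lower genes.

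Families of the cuticle and pharyngeal lining differed in direction. Collagen (col) genes, the largest of them, were higher in 19 and lower in 20 of 131 cases (14.5 and 15.3%), and cuticlin-like (cutl) genes in 5 and 3 of 19. The median log2 fold change of the col genes was -0.63. In the fit on the 6 libraries 27 col genes were higher and 67 lower. These are 20.6 and 51.1%, beside 19.3 and 21.4% over all genes in that fit. DESeq2 called 19 higher and 36 lower, and edgeR 19 and 16. Without isp-1 replicate 2, 25 col genes were lower, and with any other isp-1 or WT library left out 0 to 2, while 10 to 16 were higher over these settings. The abu genes, whose products carry prion-like repeats and line the pharyngeal cuticle, were lower in 5 of 10 cases, and in all 10 in the fit on the 6 libraries. Genes of idpp, disordered proteins of the pharynx, were lower in 7 of 12 cases. Hedgehog-related grd genes were lower in 5 of 11, and the wider list of wrt, grl and grd genes in 11 of 31, with 0 higher in each. Without isp-1 replicate 2, 6 abu, 6 idpp, 5 grd and 11 wider-list genes were lower, and with any other isp-1 or WT library left out 0 to 3, 1 or 2, 0 to 3 and 2 to 6. Over all tested genes the numbers of lower genes were 1180 and 386 to 654. The gene wrt-8 had 0.493, 1.66 and 0.345 CPM in isp-1, against 5.71, 5.88 and 5.75 CPM in WT, a log2 fold change of -2.37 (SE 0.39, limma adjusted p = 0.00172). The gene abu-14 had 14.5, 22.5 and 13.1 CPM in isp-1 and 94.5, 73.1 and 61.1 CPM in WT. Both were lower in every isp-1 library, and replicate 2 of isp-1 was the highest of its group. The call of abu-14 (limma adjusted p = 0.0221) was lost without isp-1 replicate 1 or 3 or WT replicate 1 or 2, with an adjusted p of up to 0.0768.

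Marker lists of other tissues gave few calls in the limma fit on 12 libraries. Of 4 pharyngeal muscle markers 1 was lower, the myosin gene myo-2. Limma at an unadjusted p below 0.05 gave 3 lower, edgeR 2, DESeq2 3 and the limma fit on the 6 libraries all 4. The groups did not overlap for any of the 4, and the median log2 fold change was -0.62. The summed share of these markers was 0.0367 to 0.0435% in isp-1 and 0.0565 to 0.0670% in WT. The call of myo-2 (limma adjusted p = 0.0185) ended without isp-1 replicate 1 or 3 or WT replicate 1 or 3, with an adjusted p of up to 0.0806. Of 7 hypodermis and adult cuticle markers limma called 0, beside 3 lower at an unadjusted p below 0.05, 0 with edgeR, 2 with DESeq2 and 5 in the limma fit on the 6 libraries. Among these the collagen gene rol-6 had 12.01, 26.7 and 11.1 CPM in isp-1 and 49.6, 44.8 and 52.3 CPM in WT, with replicate 2 of isp-1 the highest of its group. The summed share of the hypodermal list was 0.158 to 0.174% in isp-1 and 0.152 to 0.156% in WT, most of it from col-19. Neuron markers were called in 0 of 10 cases by limma, also at an unadjusted p below 0.05, and by edgeR and DESeq2. Body wall muscle markers were called in 0 of 8 by limma and edgeR and in 1 by DESeq2 and at an unadjusted p below 0.05, and 3 were lower in the limma fit on the 6 libraries. Their summed share was 0.721 to 0.807% in isp-1 and 0.844 to 0.970% in WT, without overlap. The part of developmental stage or tissue makeup in the lower families was not tested.

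Neprilysin (nep) genes, which encode membrane peptidases, were lower in 10 of 23 cases (43.5%, beside 10.4% over all tested genes). With single isp-1 or WT libraries left out 4 to 10 were lower, while over all tested genes 1453 became 386 to 1180. The gene nep-14 had 1.48, 0.784 and 1.03 CPM in isp-1 and 4.47, 4.22 and 2.96 CPM in WT, a log2 fold change of -1.46 (SE 0.24, limma adjusted p = 0.00167). The gene nep-20 had 1.23, 1.57 and 1.03 CPM in isp-1 and 5.03, 4.81 and 4.37 CPM in WT. The groups did not overlap for either.

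**Figure D5:**
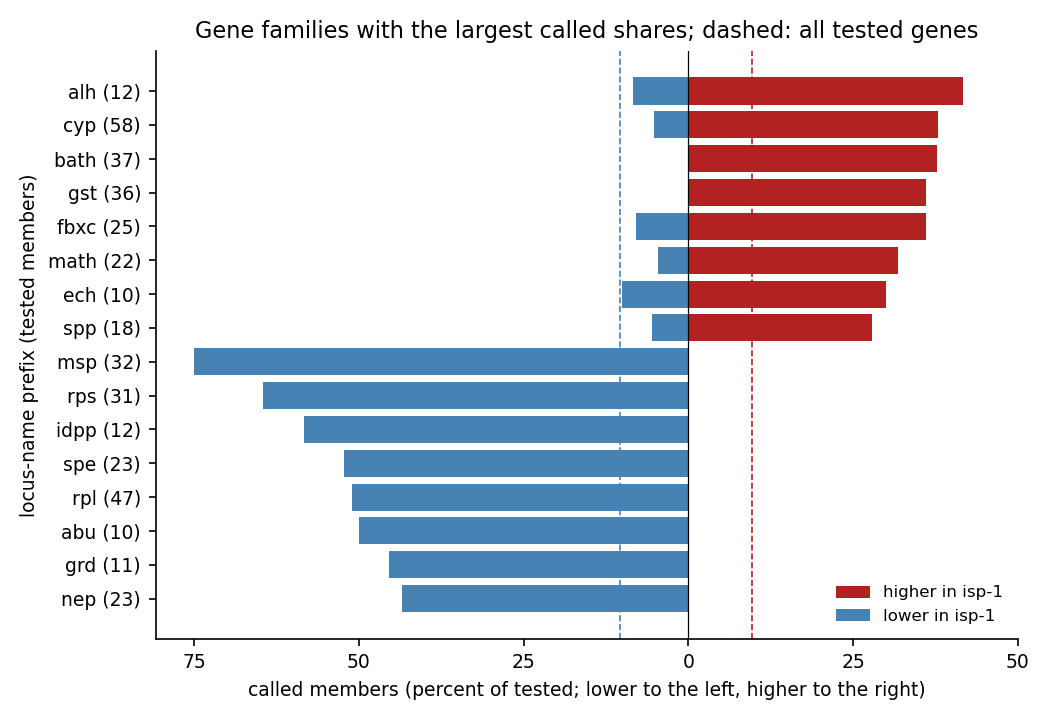
Percent of tested members called higher (red, to the right) or lower (blue, to the left) in isp-1 for the 8 prefixes with the largest share of each, with the number of tested members in brackets and the shares over all genes, 9.6% and 10.4%, dashed. The msp family reaches 75% lower and the alh family 41.7% higher.

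Nuclear hormone receptor (nhr) genes, ligand-regulated transcription factors that are numerous in nematodes, were higher in 30 and lower in 2 of 174 cases, with a median log2 fold change of 0.27. The shares were 17.2% higher and 1.15% lower, beside 9.6 and 10.4% over all tested genes. With single isp-1 or WT libraries left out 15 to 19 were higher, while over all tested genes 1345 became 647 to 978. The gene nhr-193 had 5.67, 8.28 and 5.86 CPM in isp-1 and 1.86, 1.82 and 1.48 CPM in WT (log2 fold change 1.66, SE 0.20, limma adjusted p = 1.21e-04), and nhr-61 had 16.9, 18.6 and 15.9 CPM in isp-1 and 6.49, 7.21 and 7.49 CPM in WT. Both were well clear of WT in every isp-1 library. Homeobox (ceh) genes were higher in 8 and lower in 1 of 36 cases (22.2 and 2.78%). With single isp-1 or WT libraries left out 2 to 7 were higher and 0 lower. The gene ceh-91 had 33.3, 28.6 and 31.6 CPM in isp-1 and 19.9, 20.9 and 21.2 CPM in WT, a modest log2 fold change of 0.58 (SE 0.11, limma adjusted p = 0.00332).

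Among neuropeptide genes 3 were higher and 5 lower of 102 (2.94 and 4.9%), and among chemoreceptor genes 1 and 1 of 22 (4.55% each). Over all tested genes the shares were 9.6 and 10.4%. Limma called 0 of 12 guanylyl cyclase genes and 0 of 38 potassium channel genes, beside 1 of each at an unadjusted p below 0.05; edgeR called 0 of each and DESeq2 0 and 1. In the fit on the 6 libraries 14 neuropeptide genes were higher and 9 lower. These shares of 13.7 and 8.82% were below the 19.3 and 21.4% over all genes in that fit. With single isp-1 or WT libraries left out, 0 or 1 neuropeptide genes were higher and 1 to 5 lower. The neuropeptide-like gene nlp-34, one of a group known to be induced in the epidermis by infection, had 2.46, 2.79 and 1.84 CPM in isp-1, against 6.95, 7.59 and 7.61 CPM in WT. Its groups did not overlap (log2 fold change -1.47, SE 0.32, limma adjusted p = 0.00805).

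Digestive and secreted enzyme lists were mixed. Lipase genes were higher in 5 and lower in 3 of 17 cases (29.4 and 17.6%), beside 9.6 and 10.4% over all tested genes. With single isp-1 or WT libraries left out 2 or 3 were higher and 1 or 2 lower. Over all tested genes these settings gave 647 to 978 higher and 386 to 1180 lower genes. The lysosomal lipase gene lipl-5 had 276, 267 and 291 CPM in isp-1 and 146, 156 and 181 CPM in WT, clear of overlap (log2 fold change 0.79, SE 0.11, limma adjusted p = 4.97e-04). The chitinase gene cht-1 had 66.5, 53.0 and 63.9 CPM in isp-1 and 14.5, 14.7 and 17.8 CPM in WT (log2 fold change 1.93, SE 0.34). Every isp-1 library of cht-1 lay far above WT. Membrane acyltransferase (oac) genes were higher in 2 and lower in 6 of 20 cases, and in 1 and 1 to 6 with single isp-1 or WT libraries left out. Here oac-51 had 3.39, 2.70 and 3.101 CPM in isp-1 and 0.435, 0.267 and 0.382 CPM in WT, whereas oac-50 had 0.924, 1.13 and 0.574 CPM in isp-1 and 4.56, 3.85 and 3.17 CPM in WT. Fungus-induced peptide genes were lower in 4 (23.5%) and higher in 0 of 17 cases, and lower in 0 to 2 with single isp-1 or WT libraries left out.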

How the data were processed

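The authors deposited 1 table of CPM values (read counts per gene scaled to the library total) for 12 libraries. Per the submitters' processing notes the build was WBcel235 and the tools included edgeR 3.14.0, featureCounts 1.4.6 and Subread 1.5.0. Per the labels' protocols a stranded mRNA kit was used. The strand setting of counting and the filter behind the 14326 listed genes are not given in the sources used here, so overlapping and antisense genes are uncertain. Each column summed to 1000000, and 100% of values were whole multiples of 1 read (tolerance 0.001), which gave read totals of 5438798 to 155071752. For isp-1;sod-3 replicate 1, the deepest library, this check could not be repeated independently.

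Values were transformed to log2(CPM + 0.5), genes over 1 CPM in 3 or more libraries were kept, and limma 3.58.1 (R 4.3.3; trended, robust) was fitted on 14013 genes and 12 libraries. On recovered reads, edgeR 4.0.16 called 3014 genes and DESeq2 1.42.0 called 3388. Counts of all 12 libraries were also simulated from WT means, with the spread averaged over the genotypes. Known changes were set in isp-1, only in genes with a WT mean of at least 5 CPM. Over 14013 genes, the fit recovered 34.3% of 67 genes changed 1.5-fold, 74.6% of 67 changed 2-fold and 92.4% of 66 changed 4-fold. Recovery of changed genes under 5 CPM was not simulated. Of 14326 genes, 14250 were placed with Ensembl annotation of WBcel235, and 436 of them were named from RefSeq of the same build.

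Members and lists were chosen with earlier results of these data known. Named genes are the 15 largest changes in each direction at 5 or more CPM on average without overlap, the 10 smallest adjusted p, up to 4 members by adjusted p with the largest rise and fall per family or list, mitochondrial and complex III transcripts, genes near 0 reads in one group, and the longest runs. Exceptions are stated. Alternatives covered pseudocount, filter, scaling, length, tools, threshold, libraries in the fit, a replicate block and each library left out. Replicate numbers did not pair the libraries: same-numbered isp-1 and WT libraries deviated together with correlations of -0.0329, -0.053 and 0.17.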

Additional observations from a re-analysis of the deposited data

How the results depend on the processing

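The 2798 calls became 5702 on the isp-1 and WT libraries alone (2700 higher, 3002 lower), 1451 with a mean of at least 5 CPM (877 higher, 574 lower) and 890 at an adjusted p below 0.01 (578 higher, 312 lower). The wider spread of the double mutants enters the estimate in every setting, edgeR and DESeq2 included, except the fit on the isp-1 and WT libraries alone. With 1 library left out, the number called ranged from 1088 to 3581, higher genes from 647 to 1663 and lower genes from 386 to 2033. Lower genes numbered 1180 without isp-1 replicate 2, 464 and 386 without isp-1 replicate 1 or 3, and 503, 463 and 654 without WT replicate 1, 2 or 3. With the replicate number as a block, 2182 genes were called (1075 higher, 1107 lower), although the numbers pair nothing in the design. Other pseudocounts, scalings and tools gave 2633 to 3429 calls. No call changed direction in any alternative. Of 213 named called genes, 105 stayed called in every alternative and 109 with each library left out in turn. Depth limits genes of few reads: 3 reads equal 0.0824 CPM over the isp-1 libraries and 0.0323 CPM over WT.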

Other observations

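Small gene families, with fewer than 10 tested members, were picked out after their values were seen and so carry no test as groups. Counts in brackets are with single isp-1 or WT libraries left out. Over all tested genes these settings gave 647 to 978 higher and 386 to 1180 lower genes, instead of 1345 and 1453 (9.6 and 10.4%). Of 7 coq genes, which make ubiquinone, the electron carrier that feeds complex III, 5 (2 to 5) were called higher in isp-1 and 0 lower, with a median log2 fold change of 0.41. The kinase-like gene coq-8 had 156, 160 and 165 CPM in isp-1 and 101, 103 and 105 CPM in WT (log2 fold change 0.64, SE 0.10, limma adjusted p = 9.92e-04), and coq-1 had 72.6, 81.4 and 79.3 CPM in isp-1 and 52.2, 57.5 and 49.3 CPM in WT. Neither overlapped between the groups, whereas coq-3 had 20.5, 18.5 and 21.6 CPM in isp-1 and 18.9, 19.2 and 20.6 CPM in WT. Lysosomal lipase (lipl) genes were higher in 4 (2 or 3) of 7 cases. The linker histone gene hil-7 had 14.3, 5.14 and 7.93 CPM in isp-1 and 0.248, 0.588 and 0.573 CPM in WT, a log2 fold change of 3.22 (SE 0.44, limma adjusted p = 4.64e-04).

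On the lower side were 5 (1 to 3) of 9 wht and 4 (0 to 3) of 5 abt genes, which encode ABC transporters, with 0 higher in either. The gene wht-4 had 1.91, 2.44 and 1.61 CPM in isp-1 and 6.08, 6.14 and 6.04 CPM in WT (log2 fold change -1.42, SE 0.31, limma adjusted p = 0.00899). Protein disulfide isomerase genes were lower in 3 (2 or 3) of 4 cases: pdi-6 had 134, 135 and 128 CPM in isp-1 and 236, 207 and 225 CPM in WT, with no overlap. Chaperonin (cct) genes were lower in 5 (0 to 3) of 8 cases, with a median log2 fold change of -0.29.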
